A study of Homo sapiens with 4 samples.

Results

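The genes described here were 47 genes of the DNA replication machinery, from the proteins that mark and load replication origins to those that rebuild chromatin behind the fork. They were taken by gene symbol from a hand-written list of replication functions. The rule used no measured value, but earlier results of these data were known when the genes were chosen. All 47 were found among the 24462 genes counted. The study examined what blocking the cell cycle kinases CDK4 and CDK6 does in liver cancer cells, and measured mRNA in HepG2, a human cell line from a hepatocellular carcinoma, by QuantSeq 3′ mRNA sequencing, in which reads come from near the poly(A) tail of a transcript. There were 4 libraries with 1 library per group. The first was of cells given DMSO, the solvent, and the second of cells given PD-0332991, a small molecule that inhibits the kinase activity of CDK4 and CDK6. The SC library was of cells transfected with scrambled siRNA oligos, and the CDK4-6-KD library of cells transfected with siCDK4 and siCDK6. All cells had been kept in RPMI medium with fetal bovine serum. The dose of PD-0332991 and the hours of treatment or transfection behind the sequenced RNA were not given in the sources used here.

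Replication of DNA is prepared in G1, when the origin recognition complex, CDC6 and CDT1 load the MCM helicase onto origins, a step called licensing that geminin blocks in later phases. In S phase the kinases CDC7 with DBF4 and CDK2 turn the loaded helicase into a moving fork with CDC45 and the GINS complex, and polymerases alpha, delta and epsilon copy the strands with the help of the PCNA clamp and its loader RFC. CDK4 and CDK6, with D cyclins, phosphorylate the retinoblastoma protein, which otherwise binds E2F transcription factors and holds down genes of S phase, among them many of the genes described here.

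The promoters of these genes were searched for the sequence that E2F factors bind, since CDK4 and CDK6 act on E2F through the retinoblastoma protein. E2F activity itself was not measured in these libraries. The searched letters were TTTCCCGC, TTTCGCGC, TTTGCCGC and TTTGGCGC on both strands, in windows from 250 bases before to 50 bases after the RefSeq transcription start (GRCh38.p14). Of the 47 genes, 40 had an entry, with 50 promoters between them, and 7 had none (DSCC1, MCM4, RPA2, GINS4, RPA3, MCM5 and POLD3). At least 1 of these motifs was found in 19 of the 40 genes (47.5%), against 3.99% of all genes with an entry, and in 19 of the 50 promoters (38.0%), against 3.31% of all 35116 promoters. The shorter core letters TCCCGC or TGGCGC, which lie inside some of the longer motifs, were found in 37 of the 40 genes (92.5%) and in 39.8% of all genes. The CCAAT box (CCAAT) was found in 22 of the 40 genes (55.0%) and in 39.7% of all genes, and the CHR element of cell cycle genes (TTTGAA or TTCGAA) in 2 of the 40 genes (5.0%) and in 19.5% of all genes. Of promoters of genes with at least 10 reads in any library, 4.79% held the E2F motif and 50.6% the core letters. The CCAAT box was in 34.8% of them and the CHR element in 12.1%. For the 50 promoters of the 40 genes these shares were 38.0%, 82.0%, 52.0% and 4.0%.

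Stretches of 120 bases are printed for 6 genes, from 135 to 16 bases before the start, 5′ to 3′ on the strand of the gene, with the E2F motif in capitals. MCM6, PCNA and GMNN are shown as genes with the motif and a level at least 3-fold lower after PD-0332991, and CDC7 (the downstream of its promoter entries) as a gene with the motif whose level was nearly the same after PD-0332991 and DMSO. MCM10, whose level was lowest relative to DMSO among the 47, and RFC1, the one gene whose CDK4-6-KD level lay above that in SC, are shown as genes without the motif in the window. GMNN is also shown by the downstream of its promoter entries, and PCNA by the upstream of its entries. The other entry of PCNA, of GMNN and of CDC7 held none of the searched E2F motifs.
MCM6 (chr2:135876459-135876578, minus strand): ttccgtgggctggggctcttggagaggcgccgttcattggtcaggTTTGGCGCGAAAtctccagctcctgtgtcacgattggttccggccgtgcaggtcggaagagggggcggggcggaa
PCNA (chr20:5126638-5126757, minus strand): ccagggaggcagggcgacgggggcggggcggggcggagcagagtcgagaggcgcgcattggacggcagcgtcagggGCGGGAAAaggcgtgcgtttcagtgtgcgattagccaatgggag
GMNN (chr6:24775278-24775397, plus strand): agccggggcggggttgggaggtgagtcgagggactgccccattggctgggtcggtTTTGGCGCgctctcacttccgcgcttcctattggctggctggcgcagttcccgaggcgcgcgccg
CDC7 (chr1:91500977-91501096, plus strand): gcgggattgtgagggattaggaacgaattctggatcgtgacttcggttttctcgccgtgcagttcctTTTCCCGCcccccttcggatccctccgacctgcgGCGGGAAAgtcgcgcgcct
MCM10 (chr10:13161423-13161542, plus strand): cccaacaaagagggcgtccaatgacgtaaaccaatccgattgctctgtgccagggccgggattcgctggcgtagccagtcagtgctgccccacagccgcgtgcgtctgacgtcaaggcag
RFC1 (chr4:39366378-39366497, minus strand): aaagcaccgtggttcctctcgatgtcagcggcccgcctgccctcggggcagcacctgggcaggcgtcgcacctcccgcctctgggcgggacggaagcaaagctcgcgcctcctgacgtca
In MCM6 the capitals cover overlapping motifs on opposite strands, TTTGGCGC and the reverse complement of TTTCGCGC, and in CDC7 they mark separate motifs on opposite strands. Among the genes with an entry, 13 of the 23 whose level was at least 4-fold lower after PD-0332991 held the motif, as did 6 of the 17 others. With only the bases before the start, the motif was in 8 of these 23 genes and 6 of the 17 others, and the core letters in the whole window were in 20 of the 23 and all 17 others. A match describes letters only, and no match says nothing of whether a factor binds.

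The libraries held between 8983848 and 11176880 reads, and levels below are in CPM, reads of a gene per 1000000 reads of the library, corrected with TMM factors that ran from 0.957 to 1.03. Since each group had 1 library, differences could not be set against a spread between replicates and were given no p-value. The 95% intervals come from how the reads of a gene divide between the libraries compared (Clopper-Pearson), and they cover counting error only. CDK4 was at 0.203 of its SC level in CDK4-6-KD (interval 0.188 to 0.219) and CDK6 at 0.241 (0.228 to 0.256), while after PD-0332991 they were at 0.854 and 0.93 of their DMSO levels. All 9 liver cell markers searched were detected in every library, and their summed reads made up 1.49% to 2.03% of each library. Of 18 keratinocyte markers, 11 passed the filter for PD-0332991 and DMSO, and 9 of these were at least 2-fold higher after PD-0332991, with KRT14 at 9 reads in DMSO, 249 in PD-0332991, 31 in SC and 74 in CDK4-6-KD. SFN of the same list went the other way, from 1221 reads in DMSO to 563 in PD-0332991, and the defining factor TP63 was at 0 or 1 read. The summed reads of the list, mostly of SFN and KRT10, made up 0.0211% of the DMSO library, 0.0243% of PD-0332991, 0.0358% of SC and 0.0219% of CDK4-6-KD. Reads of 7 fibroblast markers made up 0.00498%, 0.00814%, 0.00085% and 0.00235% in that order. Reads of 5 endothelial markers numbered between 4 and 6 in each library. Of 6 blood cell markers, LYZ was at 4587 to 10932 reads per library, while CD3E and HBB were at 0 reads. The part of these differences in the results below was not tested.

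Nearly the whole machinery was at a lower level where CDK4 and CDK6 were blocked, and most of it was lower after PD-0332991 than in CDK4-6-KD. The 47 genes took 0.337% of all reads in DMSO (exact binomial interval 0.334 to 0.341), 0.243% in SC (0.24 to 0.246), 0.151% in CDK4-6-KD (0.149 to 0.153) and 0.0937% in PD-0332991 (0.0917 to 0.0957). All 47 passed the filter of at least 10 reads in either library of each comparison, with between 9 reads (DSCC1 in PD-0332991) and 2709 reads (MCM7 in SC). In RNA from whole cultures, fewer cells in S phase and less of each mRNA per cell cannot be told apart.

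In the comparison of PD-0332991 with DMSO, 40 of the 47 genes were at least 2-fold lower, where 7.06% of the 13443 genes counted were, and none was at least 2-fold higher, where 7.49% of all genes were. The interval lay wholly under 1 for 43 of them (28.6% of all genes) and wholly above 1 for none (28.1%). The median log2 fold change was −2.09, or a level of 0.234 of that in DMSO, beside 0.02 over all genes counted. At least 4-fold lower levels were found in 28 of the genes (2.43% of all genes) and at least 10-fold lower levels in 5 (0.506%), which were MCM10, CDC6, DSCC1, CDC45 and GINS2. The intervals of the remaining 4, ORC2, ORC4, ORC5 and CDC7, held 1.

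In the comparison of CDK4-6-KD with SC, 21 of the 47 genes were at least 2-fold lower, where 7.62% of the 13617 genes counted were, and none was at least 2-fold higher (9.19% of all genes). The interval lay wholly under 1 for 41 (31.9% of all genes) and wholly above 1 for none (30.0%). The median log2 fold change was −0.94, a level of 0.522 of that in SC, beside 0.00 over all genes. ORC1 alone was at least 4-fold lower (1.47% of all genes). The intervals of ORC3, ORC4, GMNN, PRIM1, PRIM2 and RFC1 held 1. This count depends on the control and the threshold, since 33 genes were at least 2-fold lower in CDK4-6-KD when DMSO took the place of SC, 14 with library totals as the only scaling, and 10 when the upper end of the interval also had to reach 2-fold lower.

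**Figure D1:**
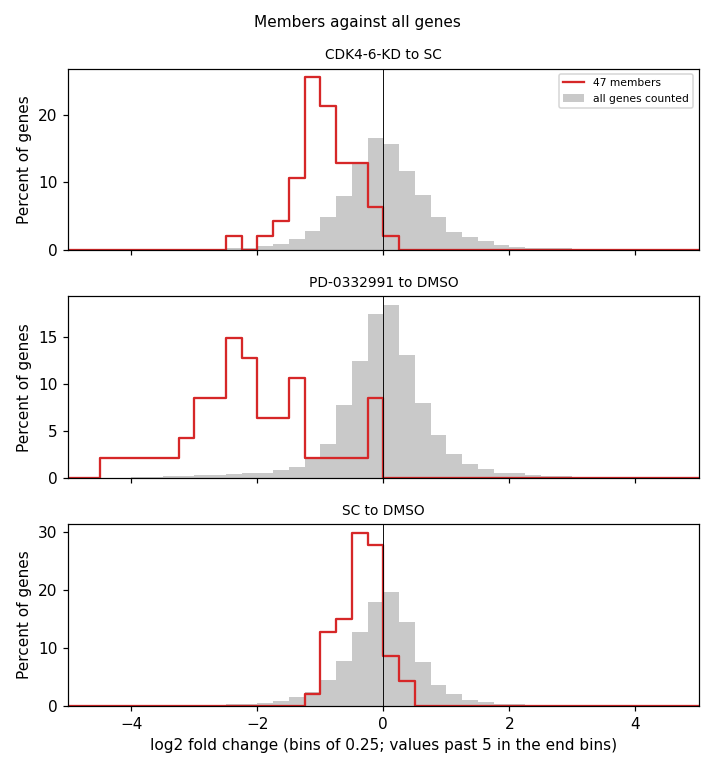
Histograms of log2 fold changes in bins of 0.25 for the 47 replication genes (red line) and all genes counted (grey), as the percent of genes in each bin, for CDK4-6-KD to SC, PD-0332991 to DMSO and SC to DMSO. The replication genes lie to the left of all genes, with medians of −0.94, −2.09 and −0.34 against 0.00, 0.02 and 0.01.

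The control libraries were not alike for these genes. In SC, 41 of the 47 were under their DMSO level, as were 49.3% of all genes, with a median log2 fold change of −0.34, a level of 0.789, beside 0.01 over all genes. PRIM1 alone was at least 2-fold lower (6.64% of the 13303 genes counted) and none was at least 2-fold higher (5.30%). The interval lay wholly under 1 for 29 (28.0% of all genes) and wholly above 1 for 3, which were ORC2, ORC5 and CDC7 (28.3%). This comparison shares a library with each of the others, so that a high DMSO value lowers both its folds and those of PD-0332991.

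Both control libraries were above both inhibited libraries for 46 of the 47 genes, the exception being RFC1, and for 21.0% of the 13961 genes counted. Both were under both inhibited libraries for none of the 47 and for 21.3% of all genes. These counts take no account of counting error. The lowest control level was only 1.01 times the highest inhibited level for GMNN, 1.02 for ORC4 and 1.03 for PRIM1. It was 1.06 times that level for ORC2 and 1.08 for CDC7. The order DMSO, SC, CDK4-6-KD, PD-0332991, from high to low, was seen for 37 genes and for 6.19% of all genes. PD-0332991 was the lowest library for 40 genes (25.9% of all genes), and CDK4-6-KD for ORC2, ORC4, MCM3, CDC7, PRIM1, POLD2 and CHAF1B. With library totals as the only scaling, 43 genes kept both controls above, and ORC4, GMNN and PRIM1 joined RFC1 as exceptions.

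**Figure D2:**
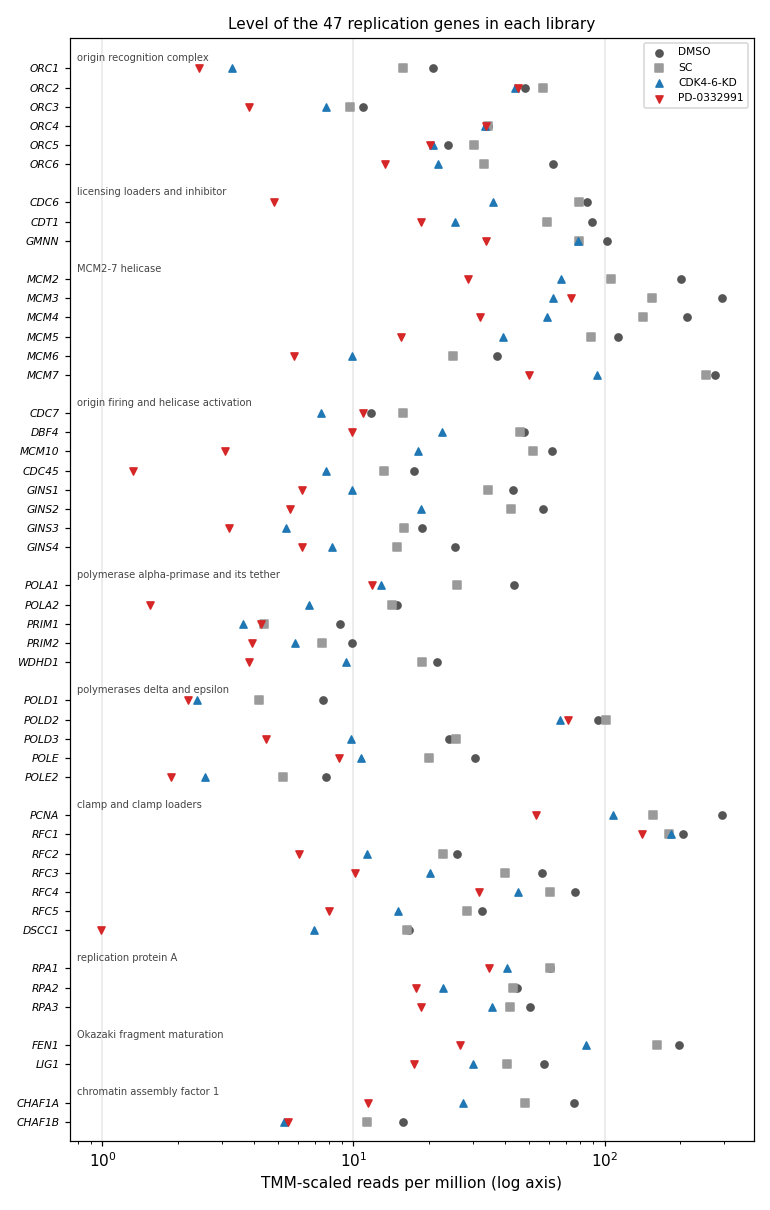
Level in CPM with TMM scaling (log axis) of each of the 47 genes in the DMSO, SC, CDK4-6-KD and PD-0332991 libraries, grouped by role, with 1 point per library. The PD-0332991 point is the leftmost for 40 genes, and for RPA1 the DMSO point (60.8) is hidden behind the SC point (60.6).

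The origin recognition complex, the 6-subunit ATPase that marks origins, was split. ORC1, its largest subunit and the one that varies through the cell cycle in human cells, stood at 20.8 CPM in DMSO, 15.8 in SC, 3.27 in CDK4-6-KD and 2.42 in PD-0332991. It was high in both controls and low in both inhibited libraries, at 0.209 of the SC level (interval 0.141 to 0.297) and 0.119 of the DMSO level (0.0711 to 0.181). ORC4, an ATPase subunit, stood at 34.4 in DMSO, 34.4 in SC, 33.4 in CDK4-6-KD and 33.6 in PD-0332991. The 4 values lay close together, with folds of 0.971 (0.839 to 1.12) and 0.978 (0.833 to 1.15), and the last 500 bases of ORC4 overlap ACVR2A on the other strand. Reads of ORC1 per read of ORC4, a ratio that no scaling of libraries changes, were 0.605 in DMSO, 0.459 in SC, 0.0979 in CDK4-6-KD and 0.0719 in PD-0332991. ORC2 and ORC5, both core subunits, were at 0.769 and 0.687 of their SC level and at 0.94 and 0.847 of their DMSO level. ORC3 and ORC6 were at 0.801 and 0.659 in CDK4-6-KD, and at 0.354 (0.232 to 0.521) and 0.215 (0.175 to 0.261) after PD-0332991. Of the ORC genes 3 were thus at least 2-fold lower after PD-0332991 and 1 in CDK4-6-KD.

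CDC6 and CDT1, which bring the helicase to the origin, were both at least 2-fold lower in each comparison. CDC6 stood at 85.4 in DMSO, 79.2 in SC, 35.9 in CDK4-6-KD and 4.83 in PD-0332991. The controls were near each other, and the fold was 0.453 (0.401 to 0.51) in CDK4-6-KD and 0.0572 (0.0408 to 0.0767) after PD-0332991. On the log2 scale the fold was lower after PD-0332991 by 2.98 (interval of the difference 2.52 to 3.45). CDT1 stood at 88.8 in DMSO, 59.2 in SC, 25.4 in CDK4-6-KD and 18.5 in PD-0332991, with folds of 0.428 (0.371 to 0.493) and 0.208 (0.175 to 0.246).

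GMNN encodes geminin, the inhibitor that binds CDT1 and prevents relicensing. It stood at 102 in DMSO, 79.3 in SC, 78.3 in CDK4-6-KD and 33.8 in PD-0332991. Its level in CDK4-6-KD was near that in SC, at 0.987 (0.897 to 1.09), while after PD-0332991 it was at 0.331 of DMSO (0.29 to 0.377), so that the log2 folds differed by 1.57 (1.34 to 1.8). There were 0.868 reads of CDT1 per read of GMNN in DMSO (0.789 to 0.955), 0.747 in SC (0.673 to 0.829), 0.324 in CDK4-6-KD (0.283 to 0.37) and 0.545 in PD-0332991 (0.449 to 0.66). The ratio was lower in both inhibited libraries than in either control, and it was lowest in CDK4-6-KD. The GMNN promoter printed above holds an E2F motif, and the other GMNN entry does not.

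The MCM2 to MCM7 genes encode the ring of the replicative helicase, and they were lower as a block. Their summed reads were 0.114% of the DMSO library, 0.0736% of SC, 0.0341% of CDK4-6-KD and 0.0208% of PD-0332991, the largest share of any role in DMSO and SC. All 6 were at least 2-fold lower after PD-0332991, and 5 were in CDK4-6-KD. MCM5 stood at 113 in DMSO, 88.0 in SC, 39.5 in CDK4-6-KD and 15.5 in PD-0332991, with the lowest PD-0332991 fold of the ring at 0.138 (0.114 to 0.164) and a fold of 0.449 (0.4 to 0.503) in CDK4-6-KD. MCM7 stood at 276, 253, 93.7 and 50.2 in the same order, with the lowest CDK4-6-KD fold of the ring at 0.37 (0.345 to 0.398) and 0.182 (0.164 to 0.201) after PD-0332991. In SC, MCM5 was at 0.781 of DMSO (0.714 to 0.854) and MCM7 at 0.917 (0.868 to 0.968), and both were lower in both inhibited libraries than in SC.

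MCM2 and MCM3 differed from the rest of the ring in their controls. MCM2 stood at 202 in DMSO, 106 in SC, 67.2 in CDK4-6-KD and 28.6 in PD-0332991. Its SC level was already 0.526 of DMSO (0.488 to 0.566), and its CDK4-6-KD fold of 0.635 (0.578 to 0.696) was the one in the ring that did not reach 2-fold, beside 0.142 (0.124 to 0.161) after PD-0332991. MCM3 stood at 295, 154, 62.5 and 73.4 in the same order, and it was the one helicase gene that was lower in CDK4-6-KD than in PD-0332991. Its folds were 0.407 (0.372 to 0.445) and 0.249 (0.229 to 0.271). MCM4 was at 0.411 and 0.15, and MCM6, whose promoter holds overlapping E2F motifs, at 0.398 and 0.157, in CDK4-6-KD and after PD-0332991.

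**Figure D3:**
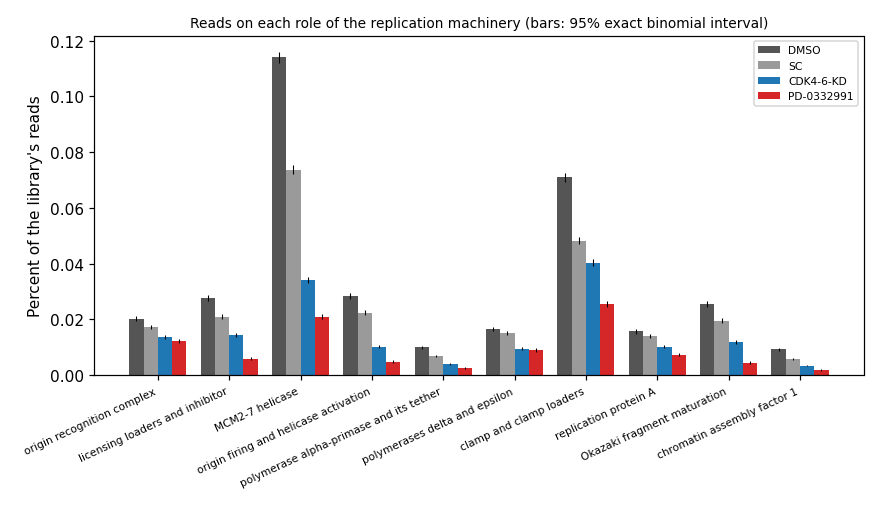
Percent of the reads of each library that fell on each of the 10 roles, with exact binomial 95% intervals as black lines, for DMSO, SC, CDK4-6-KD and PD-0332991. In every role the bars fall in this order, from 0.114% to 0.0208% for the MCM helicase and from 0.0201% to 0.012% for the origin recognition complex.

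The genes that turn the loaded helicase into an active fork held the lowest PD-0332991 fold of the 47. MCM10, which binds the helicase and is needed for the template to unwind, stood at 61.5 in DMSO, 51.7 in SC, 18.1 in CDK4-6-KD and 3.08 in PD-0332991. Its fold was 0.351 (0.297 to 0.412) in CDK4-6-KD and 0.0508 (0.0329 to 0.0731) after PD-0332991, where 28 reads were counted. No E2F motif of the searched letters lay in its window, printed above.

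CDC45 and the GINS subunits form the active helicase with the MCM ring. CDC45 stood at 17.4 in DMSO, 13.2 in SC, 7.77 in CDK4-6-KD and 1.32 in PD-0332991, and its fold of 0.0786 (0.0383 to 0.136) after PD-0332991 rested on 12 reads. In CDK4-6-KD its fold was 0.591 (0.447 to 0.775), a log2 difference between the comparisons of 2.91 (2 to 3.83). GINS1 stood at 43.2, 34.2, 9.89 and 6.26 in the same order, and it had the lowest CDK4-6-KD fold after ORC1, at 0.29 (0.232 to 0.358), with 0.146 (0.108 to 0.192) after PD-0332991. The 4 GINS genes lay between 0.29 and 0.554 in CDK4-6-KD and between 0.0989 (GINS2) and 0.248 (GINS4) after PD-0332991. All 4 were lower in both comparisons, with intervals wholly under 1.

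CDC7 and DBF4, the kinase that fires origins and its activating subunit, parted. CDC7 stood at 11.7 in DMSO, 15.7 in SC, 7.42 in CDK4-6-KD and 10.9 in PD-0332991. It was highest in SC, and its fold of 0.474 (0.359 to 0.618) in CDK4-6-KD stood beside 0.929 (0.699 to 1.23) after PD-0332991, which makes it the one gene of the 47 that was at least 2-fold lower in CDK4-6-KD only. The log2 fold in CDK4-6-KD minus that after PD-0332991 was −0.97 (−1.51 to −0.43), and its SC level was 1.34 of DMSO (1.05 to 1.72). Against DMSO its log2 fold in CDK4-6-KD was −0.65, which is less than 2-fold. DBF4 was at 0.493 (0.422 to 0.574) in CDK4-6-KD and at 0.207 (0.162 to 0.259) after PD-0332991.

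**Figure D4:**
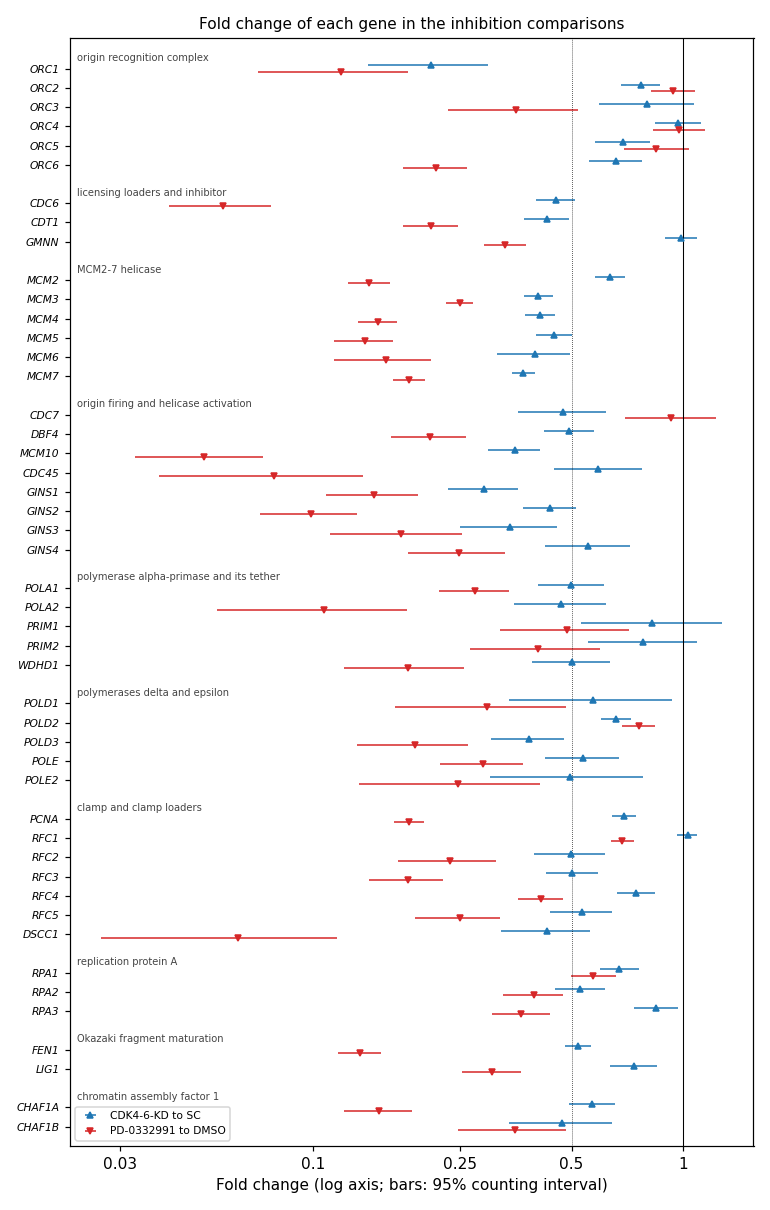
Fold change of each gene (log axis) in CDK4-6-KD relative to SC and in PD-0332991 relative to DMSO, with 95% counting intervals as bars, a solid line at 1 and a dotted line at 0.5. PD-0332991 lies to the left of CDK4-6-KD for 42 of the 47 genes, and CDC7 is at 0.474 in CDK4-6-KD and 0.929 after PD-0332991.

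Polymerase alpha with its primase starts each new strand, and WDHD1 ties it to the helicase. All 5 genes were at least 2-fold lower after PD-0332991. POLA2, the accessory subunit, stood at 14.9 in DMSO, 14.2 in SC, 6.63 in CDK4-6-KD and 1.54 in PD-0332991, with folds of 0.468 (0.349 to 0.619) and 0.107 (0.055 to 0.179). The controls were alike, and the PD-0332991 value rested on 14 reads. The last 500 bases of POLA2 overlap another gene on the same strand. PRIM1, the primase that makes the RNA primer, stood at 8.86, 4.39, 3.62 and 4.28 in the same order. DMSO was its one high library, and SC was at 0.498 of it (0.338 to 0.718), so that its fold of 0.486 (0.321 to 0.716) after PD-0332991 was close to the fold between the controls. Its CDK4-6-KD fold was 0.826 (0.529 to 1.28), and its last 500 bases overlap NACA on the same strand. POLA1, WDHD1 and PRIM2 were at 0.499, 0.502 and 0.781 in CDK4-6-KD and at 0.274, 0.18 and 0.405 after PD-0332991.

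Polymerases delta and epsilon extend the lagging and the leading strand. POLD3, the subunit of polymerase delta that binds PCNA, stood at 24.1 in DMSO, 25.7 in SC, 9.81 in CDK4-6-KD and 4.5 in PD-0332991, with folds of 0.383 (0.303 to 0.477) and 0.189 (0.131 to 0.262). POLD2, the subunit that joins it to the catalytic one, stood at 94.1, 101, 66.6 and 71.5 in the same order, with folds of 0.66 (0.601 to 0.725) and 0.76 (0.685 to 0.842). Both genes were lower in both inhibited libraries than in either control, POLD3 by far more. There were 0.256 reads of POLD3 per read of POLD2 in DMSO, 0.255 in SC, 0.147 in CDK4-6-KD and 0.063 in PD-0332991. The ratio was the same in the controls within its counting interval, and it was lower in both inhibited libraries. POLD1, POLE and POLE2 were at 0.572, 0.536 and 0.494 in CDK4-6-KD and at 0.296, 0.288 and 0.246 after PD-0332991. POLD1 was counted at 20 to 69 reads per library, and its last 500 bases overlap another gene on the same strand.

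PCNA, the sliding clamp that holds polymerases on DNA, was at 0.693 (0.644 to 0.747) in CDK4-6-KD and at 0.182 (0.165 to 0.2) after PD-0332991. It stood at 294 in DMSO, 156 in SC, 108 in CDK4-6-KD and 53.5 in PD-0332991, so the SC library was at 0.529 of DMSO (0.497 to 0.562). This step between the controls was larger than that from SC to CDK4-6-KD, and PCNA has 3 named pseudogenes with which reads could be shared.

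The clamp is opened by RFC, whose large subunit RFC1 had a higher fold than the small ones, RFC2 to RFC5, in both comparisons. RFC1 stood at 205 in DMSO, 180 in SC, 184 in CDK4-6-KD and 141 in PD-0332991. It was the highest CDK4-6-KD fold of the 47 at 1.03 (0.963 to 1.09), and it was at 0.686 (0.638 to 0.737) after PD-0332991. RFC2 to RFC5 lay between 0.497 and 0.748 in CDK4-6-KD and between 0.18 (RFC3) and 0.413 (RFC4) after PD-0332991. Reads of RFC3 per read of RFC1 were 0.275 in DMSO (0.249 to 0.303), 0.224 in SC (0.201 to 0.249), 0.11 in CDK4-6-KD (0.0953 to 0.126) and 0.0718 in PD-0332991 (0.0575 to 0.0888). The ratio was thus lower in both inhibited libraries than in either control. DSCC1, part of the alternative loader that acts in sister chromatid cohesion, stood at 16.6, 16.4, 6.98 and 0.988 in the order DMSO, SC, CDK4-6-KD and PD-0332991. It had equal controls and a fold of 0.0625 (0.0267 to 0.116) after PD-0332991 from 9 reads, beside 0.428 (0.323 to 0.56) in CDK4-6-KD.

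Replication protein A coats single-stranded DNA at forks and in repair. Its genes were among the less changed after PD-0332991, while in CDK4-6-KD RPA2 was near the median of the 47 genes. RPA1, the large subunit, stood at 60.8 in DMSO, 60.6 in SC, 40.8 in CDK4-6-KD and 34.8 in PD-0332991, with folds of 0.674 (0.597 to 0.761) and 0.573 (0.497 to 0.658). Its controls were level and its inhibited libraries both lower, and the log2 folds of the comparisons differed by 0.24 (−0.03 to 0.5). RPA2 stood at 44.9, 43.3, 22.8 and 17.7 in the same order, with folds of 0.527 (0.451 to 0.615) and 0.395 (0.326 to 0.474). It has 3 named pseudogenes with which reads could be shared. RPA3, the smallest subunit, stood at 50.5, 42.1, 35.6 and 18.5, with folds of 0.847 (0.738 to 0.971) and 0.366 (0.305 to 0.437). The small subunits were at least 2-fold lower after PD-0332991, and none of the RPA genes was in CDK4-6-KD.

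FEN1 trims the flaps of Okazaki fragments and LIG1 seals them. FEN1 stood at 198 in DMSO, 162 in SC, 84.5 in CDK4-6-KD and 26.5 in PD-0332991, with folds of 0.522 (0.481 to 0.565) and 0.134 (0.117 to 0.153). LIG1 stood at 57.3, 40.8, 30.0 and 17.5 in the same order, with folds of 0.736 (0.636 to 0.849) and 0.305 (0.253 to 0.364). Both followed the order DMSO, SC, CDK4-6-KD, PD-0332991, and FEN1 had the lower fold of the pair in both comparisons. The last 500 bases of FEN1 overlap FADS2 on the same strand.

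Chromatin assembly factor 1 places histones on the new DNA. Its large subunit CHAF1A stood at 75.8 in DMSO, 48.2 in SC, 27.4 in CDK4-6-KD and 11.4 in PD-0332991, with folds of 0.568 (0.492 to 0.655) and 0.151 (0.121 to 0.185). CHAF1B stood at 15.8, 11.3, 5.3 and 5.49 in the same order, with folds of 0.471 (0.338 to 0.644) and 0.351 (0.247 to 0.484). CHAF1B was level between the inhibited libraries, whereas CHAF1A was far lower in PD-0332991. The log2 folds differed by 1.91 (1.55 to 2.27) for CHAF1A and by 0.43 (−0.22 to 1.07) for CHAF1B.

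Set side by side, the comparisons gave a lower fold after PD-0332991 for 42 of the 47 genes and for 50.6% of the 13099 genes counted in both. The interval of the difference lay wholly on that side for 38, where 28.3% of all genes did, and wholly on the other side for ORC2, CDC7 and POLD2 (27.9% of all genes). For ORC4, ORC5, PRIM1, POLD1, RPA1 and CHAF1B it held 0. At least 2-fold lower levels were seen in both comparisons for 20 genes (1.49% of all genes) and after PD-0332991 only for 20 (5.37%). They were seen in CDK4-6-KD only for CDC7 (5.37%), and in neither for ORC2, ORC4, ORC5, POLD2, RFC1 and RPA1. Across the 47 genes, which are not independent replicates, the rank correlation (Spearman) of the folds was 0.67, a description of these libraries. These comparisons use different control libraries, and with the controls exchanged the median log2 fold was −1.28 in CDK4-6-KD to DMSO and −1.54 in PD-0332991 to SC.

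**Figure D5:**
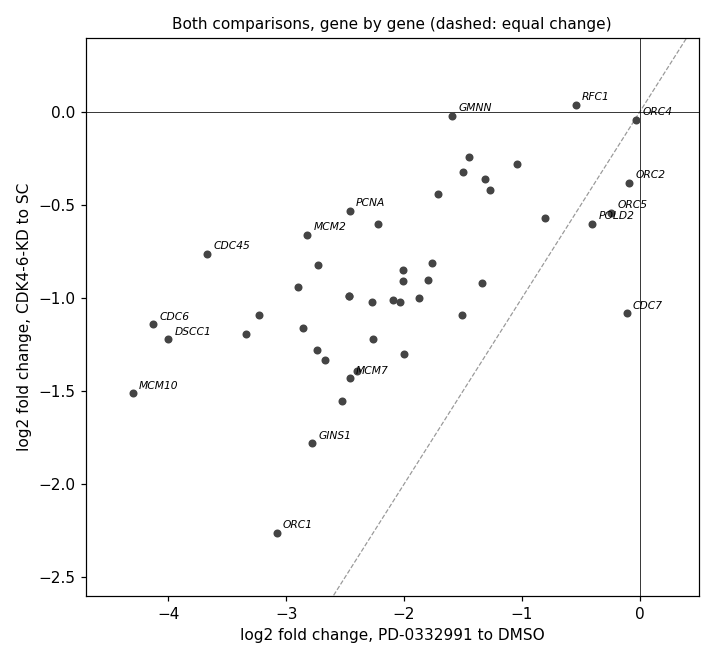
Log2 fold change of each of the 47 genes after PD-0332991 relative to DMSO (horizontal) and in CDK4-6-KD relative to SC (vertical), with a dashed line where both would be equal. The 42 genes left of the line had a lower fold after PD-0332991, and ORC2, ORC4, ORC5, CDC7 and POLD2 lie to its right.

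Other genes of replication from a wider list of 32, of which 31 passed the filter, had medians nearer to 0. After PD-0332991 their median log2 fold was −1.28, with 19 at least 2-fold lower and 1 at least 2-fold higher, and in CDK4-6-KD it was −0.61, with 7 and 0. CLSPN, which carries checkpoint signals at forks, was at 0.0783 (0.0641 to 0.0942) after PD-0332991 and at 0.387 (0.348 to 0.429) in CDK4-6-KD. UHRF1, which brings maintenance DNA methylation to new DNA, was at 0.0983 and 0.438, and TOP2A, the topoisomerase that separates sister DNA, at 0.131 and 0.395. POLE3, a small subunit of polymerase epsilon added to these after its values were seen, had the lowest CDK4-6-KD fold of that list at 0.278 (0.259 to 0.297), beside 0.466 (0.439 to 0.495) after PD-0332991. POLD4, a small subunit of polymerase delta named after its values were seen, was the gene at least 2-fold higher after PD-0332991, at 2.99 (2.34 to 3.87), and its SC level was 2.87 of DMSO (2.26 to 3.7), so that DMSO was its one low library.

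Lists of neighbouring functions gave the following values. The deoxynucleotide supply enzymes, of which 15 of 16 passed, had medians of −0.40 in CDK4-6-KD and −1.56 after PD-0332991. Their intervals lay wholly under 1 for 9 in CDK4-6-KD and 10 after PD-0332991 (31.9% and 28.6% of all genes). Intervals wholly above 1 were found for 3 and 2 (30.0% and 28.1%). RRM2, the regulated subunit of ribonucleotide reductase, had the lowest folds of the list, at 0.151 (0.135 to 0.169) and 0.0466 (0.0372 to 0.057). All 15 mitotic kinases were at least 2-fold lower after PD-0332991 and 5 were in CDK4-6-KD, with medians of −2.99 and −0.92. The replication genes thus had a median near that of the mitotic kinases in CDK4-6-KD and nearer to 0 than theirs after PD-0332991, differences that were not tested.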

How the data were processed

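The authors made QuantSeq 3′ mRNA libraries from 500 ng of total RNA and deposited raw counts of reads per gene symbol, 1 file per library, with no normalization. The submitters' processing notes name Bowtie2, edgeR and hg19, with no version or role, and the counter, the annotation and the use of strand are not given in the sources used here. The study's results text calls the experiment a microarray, while its methods and the labels describe sequencing.

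The 25737 entries held 286 repeated symbols, whose counts were added together (24462 genes), and none of the 47 genes was among them. Levels are CPM with TMM factors (edgeR 4.0.16, R 4.3.3) over the 4 libraries. Fold changes added 0.5 reads to each count, for genes that reached 10 reads in 1 or both of the libraries compared, with 95% Clopper-Pearson intervals (scipy 1.17.1). The interval of a difference of log2 folds is a normal approximation from the same counts. The sources used here name no molecular identifiers, so copies of a molecule may have counted as separate reads. The intervals cover counting error only, and such copies would make them too narrow. With 1 library per group, the quasi-likelihood test of edgeR had no residual degrees of freedom, and no p-value is given. The interval procedure was run on simulated counts that held counting error only, which says nothing of differences between cultures or library preparations.

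The rule for genes given in all 4 libraries took, in each role, those with the lowest and highest fold in each inhibition comparison, and PCNA was added after its values were seen. From the other lists, folds are given for up to 3 genes each by the distance of their interval from 1, and also for POLE3, POLD4 and the genes with opposite directions, named after their values were seen. The genes, lists and motifs were chosen with earlier results of these data known. Alternatives were DESeq2 1.42.0 size factors, library totals, quantile normalization (limma 3.58.1), a pseudocount of 5 reads, no filter or 50 reads, other thresholds, 1 entry per repeated symbol (the most counted), the control of the other arm and motifs before the start only. Promoters are from RefSeq and gene overlaps and pseudogenes from GENCODE, both on GRCh38, and no coordinate of hg19 was used.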

Additional observations from a re-analysis of the deposited data

Results flagged for a closer look

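Among the wider list of replication genes, 3 had intervals on opposite sides of 1 in the inhibition comparisons, and none of the 47 did. The difference between the comparisons was not tested over replicates, since each group had 1 library. RNASEH2B, a subunit of ribonuclease H2, was at 1.52 of SC in CDK4-6-KD (interval 1.23 to 1.88) and at 0.501 of DMSO after PD-0332991 (0.396 to 0.627), while SC itself was at 0.541 of DMSO (0.436 to 0.667). CHTF8, part of the alternative clamp loader, was at 0.916 (0.873 to 0.962) in CDK4-6-KD and 1.23 (1.16 to 1.3) after PD-0332991. SC was at 1.37 of DMSO (1.29 to 1.44) for CHTF8, and its levels were 228 CPM in DMSO, 312 in SC, 286 in CDK4-6-KD and 280 in PD-0332991, so that both inhibited libraries were above DMSO and under SC. RNASEH2C was at 1.14 (1.05 to 1.24) and 0.915 (0.837 to 0.999), with SC at 0.867 of DMSO (0.795 to 0.945) and levels of 115 CPM in DMSO, 99.7 in SC, 114 in CDK4-6-KD and 105 in PD-0332991.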

How the results depend on the processing

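Of 56 medians and counts compared, 10 moved, a count by more than 1.5-fold or a median past the median ends of the counting intervals. No median changed sign, while a count has no direction to change. Of 415 single gene values compared, none whose interval left out 1 changed sign. Of the values whose interval held 1, 6 changed sign: with quantile normalization ORC4 (0.02 in CDK4-6-KD, 0.04 after PD-0332991) and GMNN (0.07), with library totals ORC4 and GMNN (below), and against DMSO in CDK4-6-KD RFC1 (−0.15), all log2 folds. With the control of the other arm, the median log2 fold was −1.28 in CDK4-6-KD and −1.54 after PD-0332991, and 33 genes were at least 2-fold lower in CDK4-6-KD. At a threshold of 1.5-fold the CDK4-6-KD count was 34, and with the whole interval past 2-fold it was 10. The count of 1 in SC to DMSO became 2 with library totals, 0 with quantile normalization, 0 with a pseudocount of 5 reads, 10 at 1.5-fold and 0 with the whole interval past 2-fold. The PD-0332991 count lay between 36 and 41, and the cause of the differences was not tested. Library totals shifted the median of all genes by 0.10 in CDK4-6-KD to SC, and there GMNN, ORC4 and RFC1 had log2 folds of 0.08, 0.06 and 0.14. Both controls stood above both inhibited libraries for 43 genes with library totals and for 44 with quantile normalization, against 46. The E2F motif lay before the start in 14 of the 40 genes. Of the single gene values, 32 moved past their counting interval, 28 of them with the control of the other arm.

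No paired analysis was possible because each group had 1 library, and no library could be left out. Depth limits DSCC1, CDC45 and POLA2, which had 9, 12 and 14 reads in PD-0332991. What differs between cultures cannot be seen in these libraries, and the cultures and the treatments cannot be told apart.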
